A study of Mus musculus with 15 samples.

Results

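The genes described here are 10 members of the NRF2 antioxidant and glutathione programme in mouse liver: Nfe2l2, Keap1, Nqo1, Gclc, Gclm, Srxn1, Txnrd1, Hmox1, Gsr and Osgin1. They were taken by symbol from a table of 16330 genes, and all 10 were present. All 10 also passed the filter on low values (a normalized count of 10 or more in at least 3 libraries), which left 13570 genes tested. The study sequenced RNA from 15 livers that expressed either luciferase, a light-producing control enzyme, or LbNOX, a bacterial NADH oxidase that converts NADH to NAD+ and water. Mice received water or ethanol by gavage and the tissue was taken after 6 h. The groups were luciferase with water (5 libraries, M1 to M5), LbNOX with water (4, M6 to M9), luciferase with ethanol (3, M10 to M12) and LbNOX with ethanol (3, M13 to M15). The labels call the constructs genotypes and name neither the way they were delivered nor the ethanol dose, strain, sex or age, and the series' design text speaks instead of wild-type or ChREBP animals, which the sample titles do not mention. The labels do not say that libraries came from separate animals, so each p-value reflects variation among these libraries, which may be technical. The question is how ethanol moves these genes, and whether it does so when LbNOX is present.

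NRF2, encoded by Nfe2l2, is a transcription factor that is kept scarce by KEAP1, an adaptor that presents it for degradation. Electrophiles and oxidants modify cysteines of KEAP1, whereupon NRF2 accumulates, pairs with a small Maf protein and binds antioxidant response elements. Its targets supply glutathione, keep thioredoxin and peroxiredoxins in working form, and detoxify quinones and haem. In the liver this programme is best known for its induction by drugs and other reactive chemicals.

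Recovered depth ran from 10610038 reads (M13) to 23714943 reads (M1). Liver identity was clear from 9 hepatocyte markers present in the table, whose summed normalized count was 551981 to 1042770. Fewer cells of a type and less RNA per cell cannot be told apart in such bulk samples. Libraries M3 and M8 had the highest summed level of 11 Kupffer cell and macrophage markers (4505 and 3783), against 1602 to 3232 in the other 13 libraries, so the values without them are given where a call depends on them.

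Promoters are shown for members with letters of a core antioxidant response element near a start site, the motif through which NRF2 is known to act. RefSeq starts (build GRCm38.p6) were found for 7 of the 10 members, at 9 start sites, and the 250 bases before each start were searched on both strands. The motif TGACNNNGC occurred before 3 of the 9 starts (Gclm, Nfe2l2 and a Txnrd1 start), against 10.2% of 32851 starts of all genes. The motif TGAGNNNGC occurred before 2 (Osgin1 and Srxn1), against 14.4% of all starts, and the AP-1 motif TGAGTCA occurred before the same 2, against 4.46%. At both genes a TGAGTCA lay within a TGAGNNNGC match, and Srxn1 held another of each that stood alone. A match is a string of letters, not a measured binding site. The stretches below run from 200 to 31 bases before the start, 5′ to 3′ on the strand of the gene, with the matches in capitals; a match on the other strand appears as its reverse complement. The Nfe2l2 match lies farther from its start than these stretches reach. They cover chr8:119436947-119437116 for Osgin1, chr2:152105324-152105493 for Srxn1, chr10:82859006-82859175 for Txnrd1 and chr3:122245357-122245526 for Gclm, all on the + strand. The Osgin1 and Txnrd1 stretches lie inside the annotated genes, before a later start, and no stretch holds exon bases of its own gene. The first 3 bases of the Txnrd1 stretch are also annotated as an exon of Gm38560, a gene of the opposite strand. Osgin1 is shown as the member called after ethanol in luciferase livers, Srxn1 and Txnrd1 as thioredoxin-side enzymes with low values there, and Gclm as a member with a match and the smallest difference.
Osgin1: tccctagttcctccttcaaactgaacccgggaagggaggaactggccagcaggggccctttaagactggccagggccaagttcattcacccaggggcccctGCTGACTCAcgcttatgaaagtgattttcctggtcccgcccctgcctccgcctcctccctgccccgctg
Srxn1: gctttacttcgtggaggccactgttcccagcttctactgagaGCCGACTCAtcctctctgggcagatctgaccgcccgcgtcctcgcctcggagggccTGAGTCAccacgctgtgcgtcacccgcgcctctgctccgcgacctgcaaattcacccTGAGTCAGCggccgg
Txnrd1: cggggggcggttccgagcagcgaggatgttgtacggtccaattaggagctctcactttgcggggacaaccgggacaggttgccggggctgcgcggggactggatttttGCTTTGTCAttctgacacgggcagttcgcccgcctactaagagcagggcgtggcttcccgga
Gclm: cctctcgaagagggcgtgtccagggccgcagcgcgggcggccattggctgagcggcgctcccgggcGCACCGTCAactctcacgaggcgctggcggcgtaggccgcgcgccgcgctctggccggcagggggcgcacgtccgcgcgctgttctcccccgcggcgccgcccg

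In control livers (luciferase, water) the genes of glutathione and sulfiredoxin led the group. Levels between genes are compared as normalized count per kilobase of merged exon in GENCODE vM21, mean ± SD over 5 libraries. Gclc, the catalytic subunit of glutamate-cysteine ligase and the rate-limiting step of glutathione synthesis, stood highest at 3073 ± 993 per kilobase. Srxn1, the sulfiredoxin that rescues over-oxidised peroxiredoxins, followed at 1933 ± 905 per kilobase, and Gsr, the reductase that regenerates glutathione, at 1199 ± 303. Gclm, the modifier subunit of the ligase, had 903 ± 83.4 per kilobase and Osgin1, an oxidative stress-induced growth inhibitor, had 706 ± 328. Nfe2l2 itself had 576 ± 50.7 per kilobase, Nqo1, the NAD(P)H quinone dehydrogenase, 569 ± 143, and Txnrd1, the cytosolic thioredoxin reductase, 445 ± 98.9. Hmox1, the inducible haem oxygenase, had 330 ± 91.7, and Keap1 was lowest at 89.7 ± 18.3. Each neighbour in this order overlapped the next in its libraries, except Hmox1 and Keap1. The Txnrd1 gene has several starts, so its merged exons (7086 bases) exceed a single transcript and its level per kilobase is a low estimate.

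**Figure D1:**
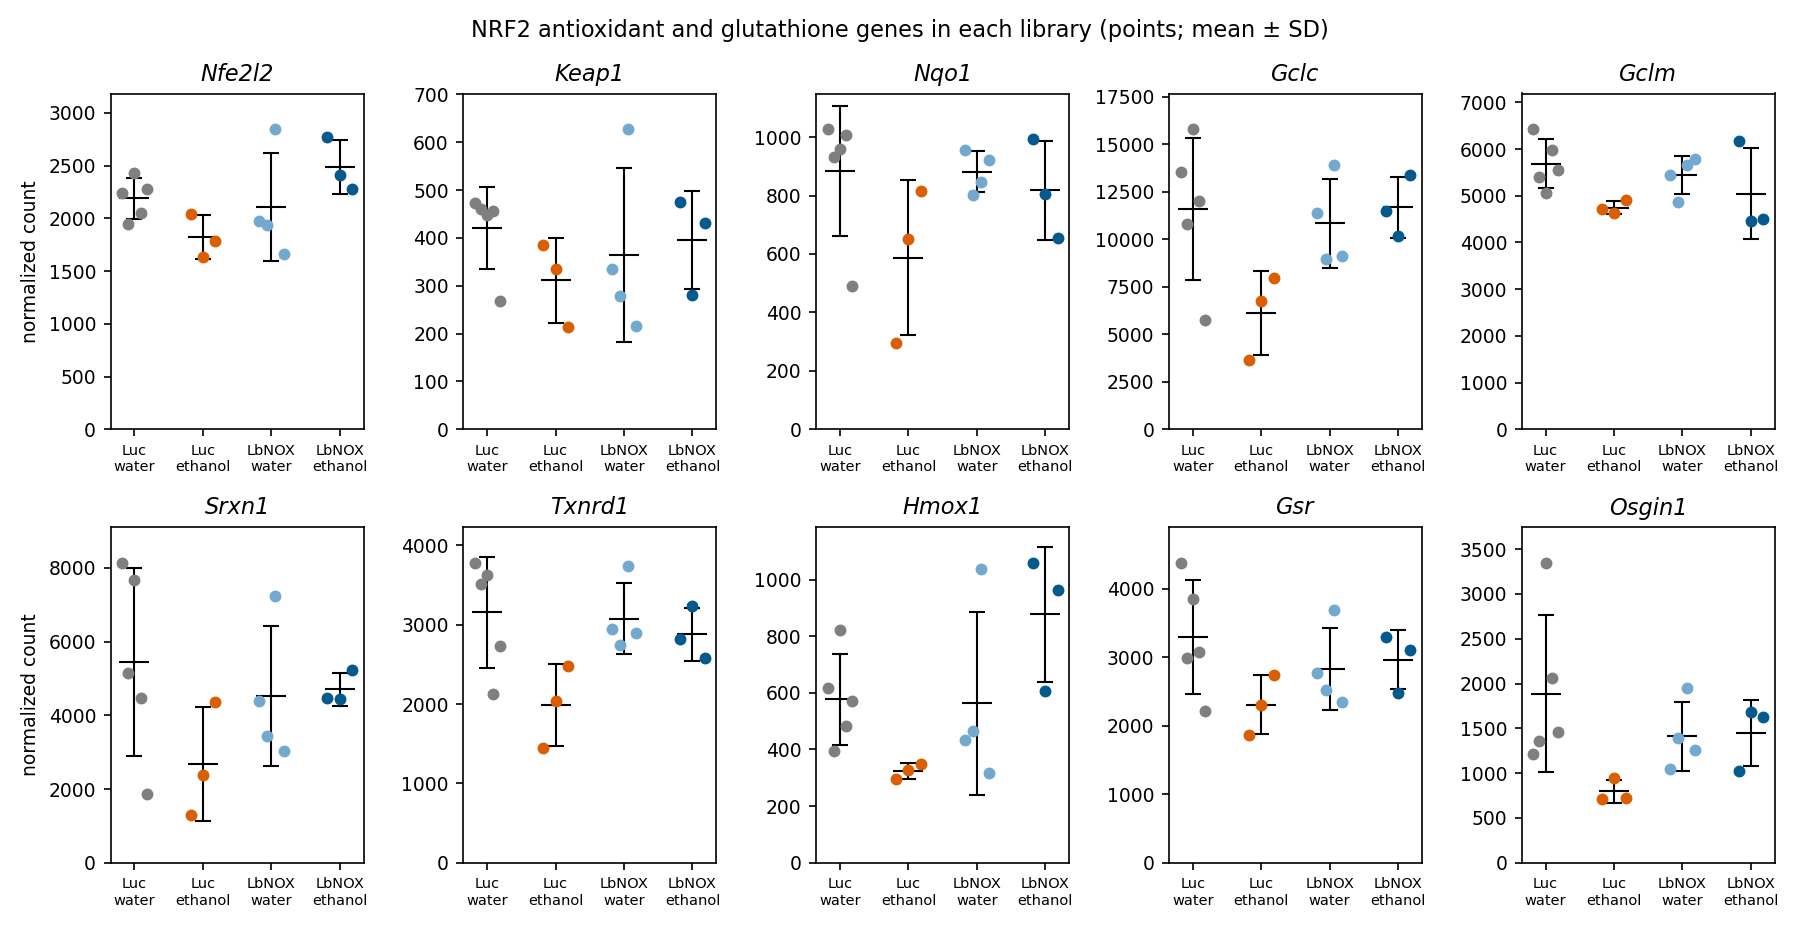
Normalized count of each member (vertical axes from 0) in the 4 groups; each point is a library and the bars are mean ± SD. Luciferase ethanol libraries have the lowest group mean for every member. Hmox1 has its highest group mean in LbNOX ethanol livers, with libraries at 608 to 1059. The water libraries M1 (617), M3 (820) and M8 (1037) lie within that range.

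After ethanol, luciferase livers had lower mean levels of every member than after water, and Osgin1 passed the test. Osgin1 had normalized counts of 1215, 1358, 3346, 2062 and 1464 in M1 to M5 after water, and of 715, 947 and 728 in M10 to M12 after ethanol. Every ethanol library lay below every water library, with M3 far above its group. Its log2 fold change (on the scale of the normalized count plus 1, as all below) was −1.15 (SE 0.30, adjusted p = 0.0285 by limma). The remaining members had log2 fold changes from −1.02 to −0.25, and none of them passed over all genes. So 1 of 10 members fell and 0 rose, where 3.13% of all genes tested fell and 4.62% rose. The members' median log2 fold change was −0.66, against 0.01 over all genes tested, and 10 of 10 lay below 0, where 49.4% of all genes did. Before adjustment 7 of the 10 had a p under 0.05 on the lower side, against 10.1% of all genes tested. These counts are a description: the members share libraries, are not 10 independent observations, and were chosen with earlier results known. The Osgin1 call ended without M10 (adjusted p = 0.126), without M12 (0.103), and when only the luciferase groups were fitted (0.0638). Some other cell types also had lower marker sums in these livers. The 8 endothelial markers summed to 1952 to 2983 after ethanol and 2426 to 3924 after water (0 of 8 called, median log2 fold change −0.60). The 9 T and NK cell markers summed to 92.0 to 103 and 92.7 to 283 (1 of 8 tested, Nkg7, fell). The median was −0.41 for Kupffer cell and macrophage markers and −0.43 for red blood cell markers. It was above 0 for cholangiocyte (1.61), neutrophil (0.29), stellate cell (0.16) and hepatocyte (0.10) markers. In LbNOX livers the endothelial sum was 2394 to 3283 after ethanol and 2481 to 4112 after water. The part of these cell types in the members' values was not tested. With edgeR on recovered reads 1 member was called, and with DESeq2 3 were (Gclc and Txnrd1 beside Osgin1). Over all genes tested limma called 1052, edgeR 1049 and DESeq2 1621.

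The subunits of the ligase that starts glutathione synthesis had unlike values in luciferase livers after ethanol. Gclc had normalized counts of 13516, 10802, 15778, 12001 and 5769 in M1 to M5 and of 3655, 6751 and 7963 in M10 to M12. The water library M5 lay among the ethanol libraries, so the groups overlapped. The log2 fold change of Gclc was −0.92 (SE 0.30, adjusted p = 0.0824), and it passed without M5 (−1.15, adjusted p = 0.0127). Gclm had 6418, 5394, 5067, 5971 and 5559 after water and 4712, 4629 and 4902 after ethanol. All 3 ethanol libraries were below the water libraries, but by little, with a log2 value of −0.25 for ethanol minus water (SE 0.13, adjusted p = 0.265). The ratio of Gclc to Gclm, each per kilobase, was 3.43 ± 1.23 after water (n = 5) and 2.15 ± 0.75 after ethanol (n = 3). It ran from 1.73 to 5.20 and from 1.296 to 2.71, so those ranges overlapped through M5. Gsr had 2223 to 4377 after water (median 3072) and 1872, 2307 and 2737 after ethanol, which is −0.50 on the log2 scale (SE 0.21, adjusted p = 0.189).

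The thioredoxin-side enzymes were also low, with wide spread between libraries. Srxn1 had normalized counts of 8135, 5144, 7661, 4464 and 1857 in the luciferase water libraries and of 1293, 2393 and 4352 in the ethanol libraries. M5 again stood within the ethanol range, and M12 near M4. The log2 fold change of Srxn1 was −1.02 (SE 0.45, adjusted p = 0.212), and −1.37 without M5 (adjusted p = 0.0402). Txnrd1 had 3778, 3508, 3628, 2129 and 2738 after water and 1445, 2042 and 2483 after ethanol. Here M4 was the water library inside the ethanol range. The log2 fold change of Txnrd1 was −0.67 (SE 0.20, adjusted p = 0.0610), and it passed without M4 (−0.80, adjusted p = 0.0140) or without M12 (−0.85, adjusted p = 0.0465).

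The quinone and haem enzymes differed in how the libraries separated. Nqo1 had 1026, 931, 961, 1009 and 491 in luciferase water livers and 297, 651 and 816 in ethanol livers, which is −0.66 on the log2 scale (SE 0.29, adjusted p = 0.213). The lowest value belonged to M10 and the next to the water library M5. Hmox1 had 617, 394, 820, 482 and 572 after water and 297, 327 and 350 after ethanol. These groups did not overlap, and the log2 fold change was −0.79 (SE 0.32, adjusted p = 0.165). The regulators stood nearer to their water levels: Nfe2l2 had 2239, 1947, 2433, 2047 and 2276 after water and 2042, 1633 and 1786 after ethanol (−0.27, SE 0.15, adjusted p = 0.347). Keap1 had 472, 460, 449 and 456 in M1 to M4 with 268 in M5, and 386, 336 and 213 after ethanol (−0.45, SE 0.31, adjusted p = 0.464). Over the 10 members, 3 (Gclm, Hmox1 and Osgin1) had every ethanol library below every water library, where 6.39% of all genes tested did, and 0 had the opposite, where 8.32% did.

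Library M10 held much of the difference for several members. It was the lowest of the 3 luciferase ethanol libraries for 7 of the 10 members, and M12 was the highest for 7. Without M10 the log2 fold change was −0.23 for Nqo1, −0.58 for Gclc, −0.58 for Srxn1 and −0.45 for Txnrd1, and all 10 members remained below 0. Osgin1 was at −1.08 and Hmox1 at −0.73 without it. Among luciferase water libraries M5 was the lowest for 5 members, with a median deviation from its group mean of −0.40 on the log2 scale. With both M5 and M10 left out, an alternative chosen after the values were seen, 0 members were called and the log2 fold changes were −1.14 for Osgin1, −0.93 for Srxn1, −0.81 for Gclc and −0.43 for Nqo1.

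**Figure D2:**
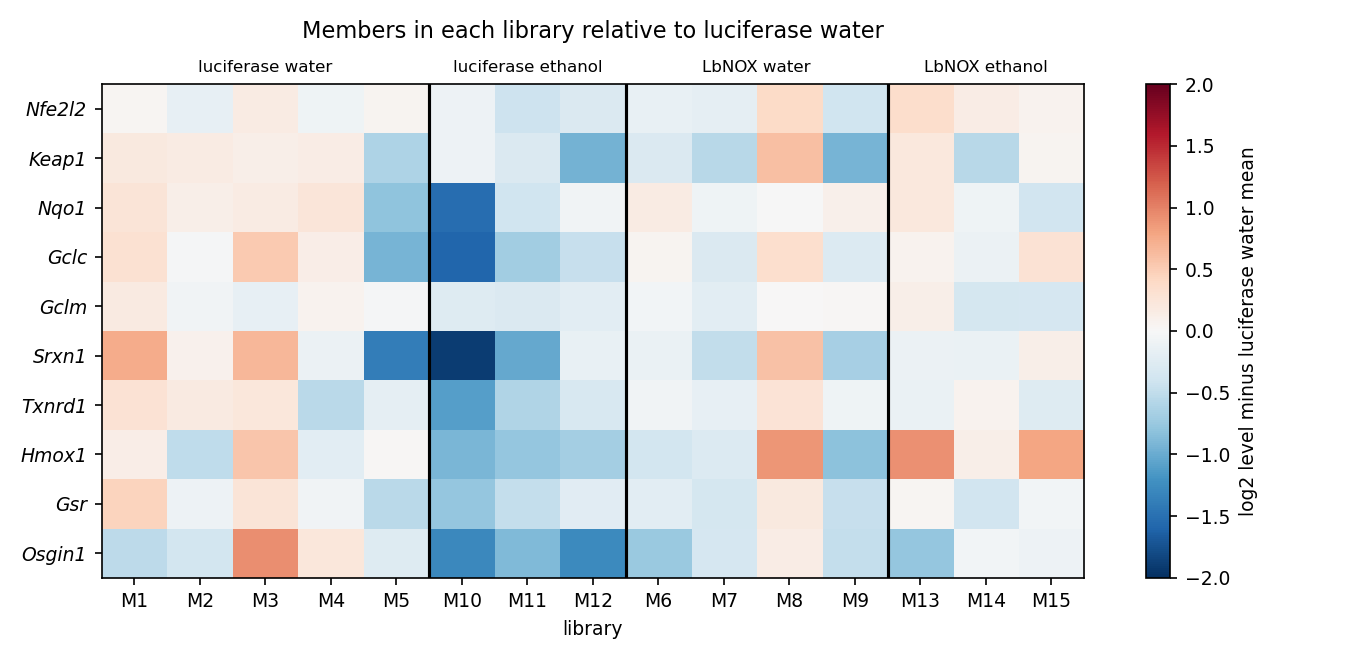
Each cell is a member's log2 level in a library minus its mean in luciferase water livers (colour scale from −2 to 2); columns are libraries by group and rows are members. M10 is dark blue for Nqo1, Gclc and Srxn1, M5 is blue for the same genes although it is a water library, and Hmox1 is red in M8, M13 and M15.

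In LbNOX livers 0 of the 10 members were called after ethanol, in either direction, by limma, edgeR or DESeq2. Among all genes tested 0.0% rose and 0.00737% fell by limma. Before adjustment 1 member, Hmox1, had a p under 0.05, on the higher side, where 5.73% of all genes tested did. Hmox1 had normalized counts of 432, 464, 1037 and 317 in M6 to M9 after water and 1059, 608 and 965 in M13 to M15 after ethanol. The water library M8 reached the level of the ethanol libraries, and the other 3 lay below all of them. The log2 fold change was 0.75 (SE 0.33, adjusted p = 0.413), and 1.09 without M8 (adjusted p = 0.0897) and without both M3 and M8 (adjusted p = 0.0474). The other members lay between −0.13 (Nqo1) and 0.27 (Nfe2l2), with a median of 0.10 over the 10 against −0.0039 over all genes tested. Their 95% intervals ran from −0.56 to 0.80 for Gclc, from −0.88 to 1.15 for Srxn1 and from −0.62 to 0.70 for Osgin1, so these data did not show the levels to be equal. No member separated the LbNOX water and ethanol libraries, where 10.9% of all genes tested did in one direction or the other.

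After water no member differed between LbNOX and luciferase livers beyond the spread of the libraries. The members' log2 differences (LbNOX minus luciferase) ran from −0.35 for Osgin1 to 0.04 for Nqo1, with a median of −0.11 against 0.01 over all genes tested. By limma 0 members were called and 0 had an unadjusted p under 0.05. edgeR and DESeq2 called 0 members as well. Over all genes tested 0.0% were higher and 0.0% lower by limma. Gclc had 11400, 8949, 13932 and 9097 in the LbNOX water libraries, all within the range of the luciferase water libraries. M8 had the highest value in its group for 8 of the 10 members, with a median deviation of 0.43 on the log2 scale. No member separated these groups, where 0.936% of all genes did. The 95% interval of the difference was −0.31 to 0.19 for Gclm, −0.38 to 0.22 for Nfe2l2 and −1.07 to 0.71 for Srxn1.

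After ethanol, every member had a higher mean in LbNOX than in luciferase livers, and Hmox1 passed the test. Its normalized counts of 1059, 608 and 965 in M13 to M15 stood against 297, 327 and 350 in M10 to M12. The lowest LbNOX library was thus above the highest luciferase library. The log2 difference was 1.40 (SE 0.36, adjusted p = 0.0331). The call ended when M10, M11, M12, M13 or M15 was left out (adjusted p = 0.0769 to 0.124), without both M5 and M10 (0.129) and without the variance trend (0.0506), while the difference stayed between 1.24 and 1.45 in those fits. So 1 of 10 members was higher and 0 lower, where 2.24% of all genes tested were higher and 3.82% lower. The median over the members was 0.57, against 0.0036 over all genes tested, and 10 of 10 lay above 0, where 50.3% of all genes did. This comparison shares the luciferase ethanol libraries, M10 among them, with that of ethanol and water in luciferase livers, so the direction of the members in one is not independent of the other. edgeR called the same number of members (1) and DESeq2 called 2, Gclc beside Hmox1. Over all genes tested limma called 822, edgeR 755 and DESeq2 1349.

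The other members after ethanol were higher in LbNOX livers by amounts that did not pass. Gclc had 11473, 10166 and 13390 in the LbNOX libraries against 3655, 6751 and 7963 in the luciferase libraries, with no overlap. Its log2 difference was 1.00 (SE 0.34, adjusted p = 0.102), or 0.66 without M10, and it passed without M5 (adjusted p = 0.0413). M5 is a water library outside this comparison, so its removal moved the spread estimate and the adjustment, not the difference. Srxn1 had 4464, 4434 and 5227 against 1293, 2393 and 4352, close at its nearest pair, with a difference of 0.98 (SE 0.51, adjusted p = 0.287). Osgin1 (1028, 1683 and 1631 against 715, 947 and 728) was at 0.84 (adjusted p = 0.159), and Nfe2l2 (2773, 2412 and 2282 against 2042, 1633 and 1786) was at 0.45 (adjusted p = 0.140). Without M3 and M8 both of these passed (adjusted p = 0.0377 for Osgin1 and 0.0398 for Nfe2l2). M3 and M8 are also water libraries outside this comparison, so both differences were unchanged. In all, 6 members separated the groups on the higher side (Gclc, Hmox1, Nfe2l2, Osgin1, Srxn1 and Txnrd1), where 14.1% of all genes tested did, and 0 on the lower side, where 15.4% did. Nqo1 (0.58), Txnrd1 (0.56), Gsr (0.37) and Keap1 (0.35) had adjusted p-values from 0.171 to 0.610. Gclm was nearly level, at 0.07 (95% interval −0.23 to 0.37), so the ratio of Gclc to Gclm per kilobase was 3.96 ± 0.94 in LbNOX ethanol livers (n = 3) against 2.15 ± 0.75 in luciferase ethanol livers (n = 3).

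**Figure D3:**
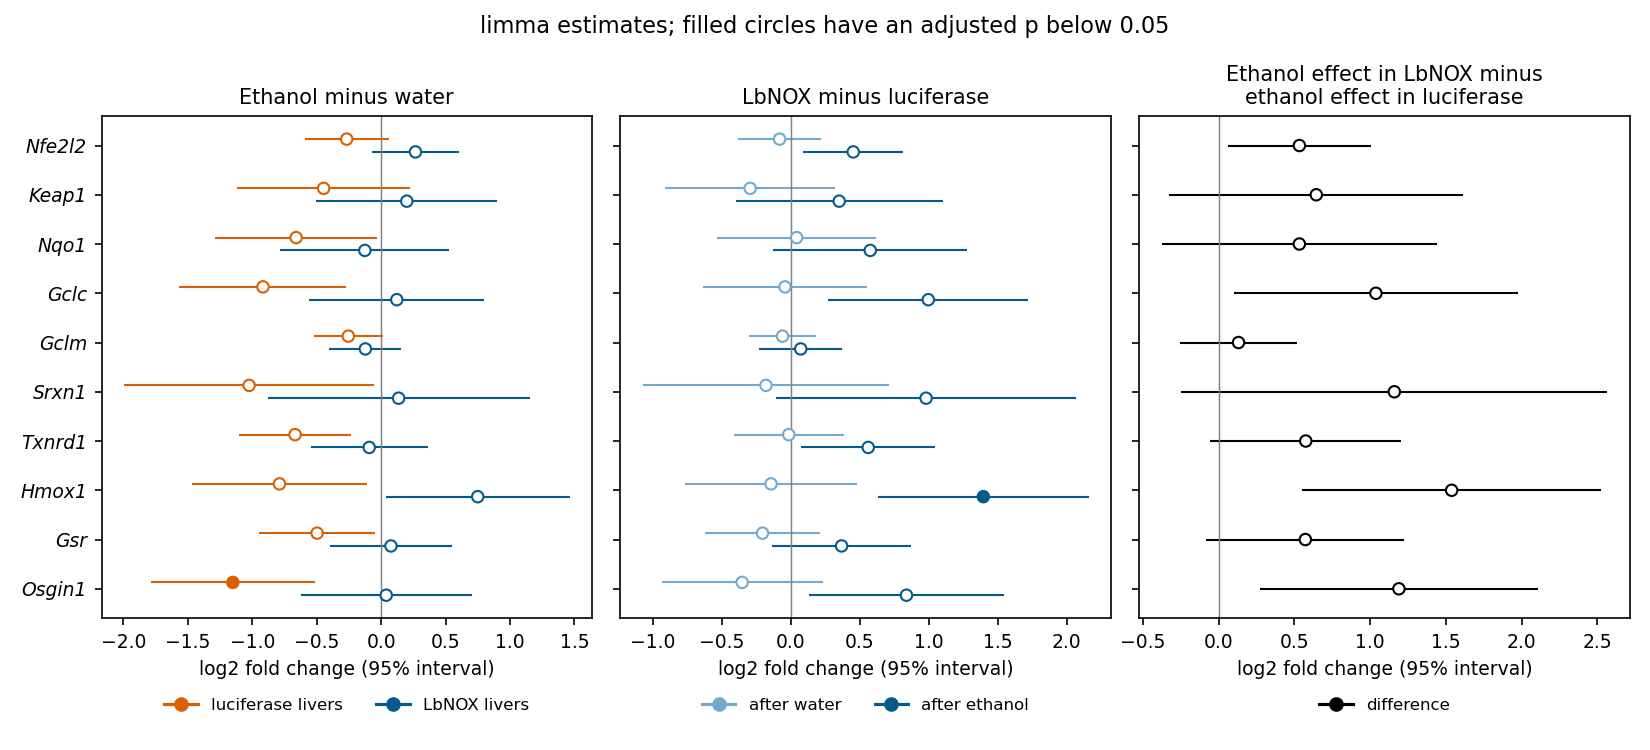
Log2 fold changes of the 10 members with 95% intervals from limma: ethanol minus water in each construct, LbNOX minus luciferase within water and within ethanol livers, and the contrast of both ethanol effects. Filled circles passed the test over all genes; these are Osgin1 (−1.15) on the left and Hmox1 (1.40) in the middle.

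The difference of the ethanol effects between the constructs was tested directly, and 0 of the 10 members passed by limma, edgeR or DESeq2. All 10 estimates were above 0, where 49.5% of all genes were, with a median of 0.61 against −0.0052 over all genes tested. This contrast contains the ethanol effect in luciferase livers with its sign turned, and that effect was below 0 for all 10. These directions are thus not independent of that result. The members are also read from the same libraries, so they are not 10 independent observations. Over all genes 0.427% were called on the higher and 1.25% on the lower side. The largest differences were 1.54 for Hmox1 (SE 0.46, adjusted p = 0.121), 1.19 for Osgin1 (SE 0.43, adjusted p = 0.201), 1.16 for Srxn1 (SE 0.66, adjusted p = 0.436) and 1.04 for Gclc (SE 0.44, adjusted p = 0.281). Before adjustment 4 members (Hmox1, Osgin1, Nfe2l2 and Gclc) had a p under 0.05, against 6.60% of all genes on that side. For Gclm the difference was 0.13 (95% interval −0.26 to 0.52). Without M8, Hmox1 (1.88, adjusted p = 0.0127) and Nfe2l2 (0.69, adjusted p = 0.0493) passed. With all libraries, the ethanol effect on the members was not shown to differ between the constructs. Leaving out M10 moved the difference from 0.53 to 0.10 for Nqo1, from 1.16 to 0.72 for Srxn1 and from 0.58 to 0.36 for Txnrd1.

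Hmox1 is strongly expressed in Kupffer cells, the liver macrophages that clear old red cells, so the macrophage markers are set beside it. Of 12 such markers 11 were in the table, and 0 of the 10 tested were called in any of the 5 comparisons by limma, edgeR or DESeq2, while 0 or 1 had an unadjusted p under 0.05 in each. Their median log2 value was −0.41 for ethanol minus water in luciferase livers and 0.61 for LbNOX minus luciferase after ethanol. Their summed normalized count was 1800 to 4505 in luciferase water, 1965 to 3783 in LbNOX water, 1602 to 2098 in luciferase ethanol and 1869 to 3232 in LbNOX ethanol libraries. Hmox1 was 16.2% to 27.4% of that sum in the 12 libraries outside the LbNOX ethanol group. In the LbNOX ethanol libraries it was 49.7% (M13), 32.5% (M14) and 29.9% (M15), above every other library. Defining Kupffer markers differed widely in level. Group means ran from 1.62 to 3.96 for Timd4 and from 7.15 to 16.9 for Vsig4, and those of Cd5l were far higher. Clec4f had mean normalized counts of 76.2 in LbNOX ethanol and 30.8 in luciferase ethanol livers, and of 57.8 and 26.9 in the LbNOX and luciferase water groups. Cd5l had 783 in LbNOX ethanol and 544 in luciferase ethanol livers, below the 838 and 933 of the LbNOX and luciferase water groups. Neutrophil markers, of which 8 of 10 were in the table, summed to 179 to 675 in LbNOX ethanol and 111 to 296 in the other libraries. What part these cells had in the Hmox1 difference was not tested.

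**Figure D4:**
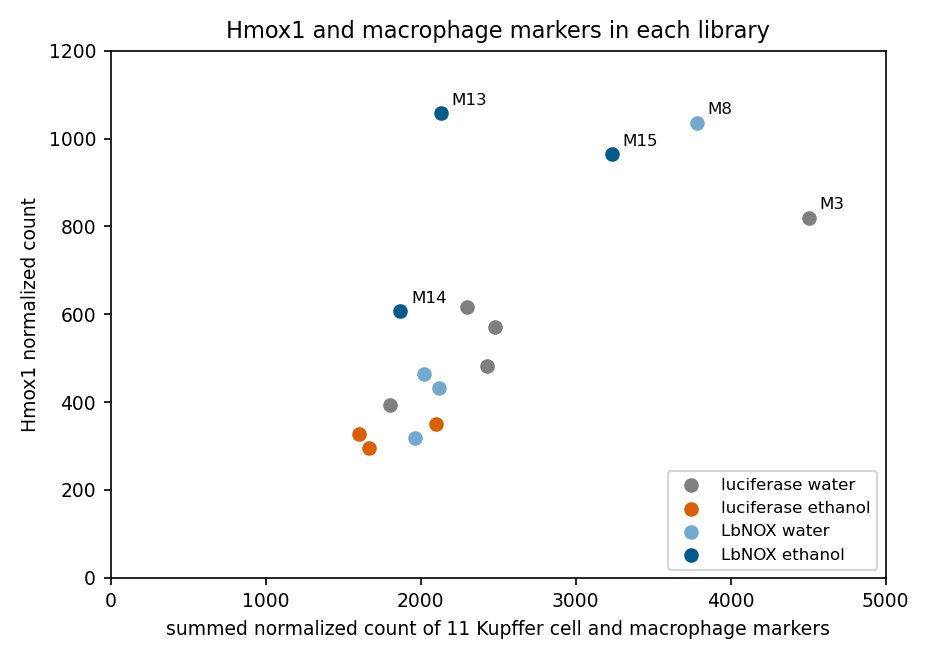
Hmox1 against the summed level of 11 Kupffer cell and macrophage markers in each of the 15 libraries, both as normalized counts. M3 and M8 combine high markers with high Hmox1, while M13 and M14 have Hmox1 of 1059 and 608 at marker sums of 2130 and 1869.

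Over the 15 libraries, the genes with the pattern most like each called member were sought among 9506 other genes with a mean of 100 or more, by Pearson's r of log2 levels. The points share libraries and groups, so r describes likeness and no more. For Hmox1 these were Ier5, an immediate early response gene (r = 0.951), Icam1, an adhesion molecule of endothelium and leukocytes (0.950), and Klf6, a zinc-finger factor (0.935). Klf6 had a mean of 1420 ± 624 in LbNOX ethanol livers and 329 ± 54.1 in luciferase ethanol livers. For Osgin1 they were Cd47, a surface protein that restrains phagocytosis (0.904), Hhex, a homeobox factor (0.902), and Gvin1, an interferon-inducible GTPase (0.888). None of these 6 genes was another member of the programme.

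Of 13 genes listed as regulators and partners of NRF2, 1 rose and 2 fell in luciferase livers after ethanol. There 4.62% of all genes tested rose and 3.13% fell, and the median log2 fold change of the 13 was −0.07. Maff, a small Maf protein that can pair with NRF2, rose from 54.6 ± 12.2 in the 5 water libraries to 327 ± 74.3 in the 3 given ethanol, by 2.57 on the log2 scale (SE 0.27, adjusted p = 7.9e-05). In LbNOX livers it had 48.3 ± 10.3 and 57.0 ± 22.1, and the difference of its ethanol effects was −2.38 (SE 0.40, adjusted p = 0.00847); that call was at 0.0528 without both M5 and M10. Nfe2l1, the related factor NRF1 that responds to proteasome load, fell in luciferase livers from 2612 ± 490 to 1602 ± 184 (−0.69, SE 0.15, adjusted p = 0.00888), a call that ended without M10 (0.0693) and without both M5 and M10 (0.0951). Trim21, a ubiquitin ligase of the interferon response, fell too (−0.89, adjusted p = 0.00351). In LbNOX livers after ethanol 0 of the 13 were called by limma and edgeR and 1 by DESeq2, which called 282 genes over the whole table. There 1 of the 13 had an unadjusted p under 0.05, where 11.6% of all genes tested did.

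Of 45 other targets attributed to NRF2, 4 rose and 2 fell in luciferase livers after ethanol, beside the 4.62% and 3.13% of all genes. Their median log2 value was −0.17 there and 0.22 for LbNOX minus luciferase after ethanol, where the members had −0.66 and 0.57. The 4 that rose act elsewhere too: Trib3, a pseudokinase of the stress response (1.91, adjusted p = 0.000188), Lpin1, a phosphatidate phosphatase (2.12, adjusted p = 0.00904), Me1, the cytosolic malic enzyme (1.00, adjusted p = 0.0243), and Pgd, of the pentose phosphate pathway (0.95, adjusted p = 0.0277). Those that fell conjugate with glucuronic acid: Ugt2b35 (−0.70, adjusted p = 0.00873) and Ugdh, which makes the donor and was named after its value was seen (−0.75). After ethanol Me1 (−1.26) and Trib3 (−1.75) were lower and Ugt2b35 (0.62) higher in LbNOX than in luciferase livers, so 1 of the 45 was higher and 2 were lower, where 2.24% and 3.82% of all genes were. In luciferase livers the Me1 call ended without M10 (adjusted p = 0.125) or M12 (0.0691) and in 4 alternative fits in all, and the Pgd call without M10 (0.128) or M12 (0.117) and in 5 fits in all. The Ugt2b35 call there ended without M10 (0.0641) and in 2 fits in all, and the Lpin1 call in 1, without both M5 and M10 (0.0756). Between the constructs after ethanol, the Me1 call ended in 5 fits (without M10, M12, M13 or M15, and without both M5 and M10; up to 0.0892) and the Ugt2b35 call in 12 (up to 0.164, without M10). In the direct test of the difference Trib3 was the gene of this list that passed (−2.09, SE 0.33, adjusted p = 0.00810).

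For the rest of the glutathione, thioredoxin and peroxide systems, calls by limma are read beside the shares over all genes tested. In luciferase livers after ethanol 4.62% of all genes rose and 3.13% fell. Between the constructs after ethanol, 2.24% were higher and 3.82% lower in LbNOX livers. Of 20 genes of glutathione synthesis and breakdown, 1 rose in luciferase livers after ethanol (median 0.11): Chac1, which degrades glutathione, rose from 183 ± 69.2 to 516 ± 55.0 (1.59, SE 0.31, adjusted p = 0.00524). There 7 of the 20 had an unadjusted p under 0.05 by limma, where 21.1% of all genes tested did. With edgeR 3 of the 20 were called and with DESeq2 4, beside 1049 and 1621 genes over the whole table. Between the constructs after ethanol, and for the difference of the ethanol effects, limma and edgeR called 0 of the 20. DESeq2 called 2 in each, beside 1349 and 633 genes over the whole table. Of 14 tested glutathione peroxidase, glutaredoxin and glyoxalase genes, 1 fell (median −0.11), Gpx7, a peroxidase of the endoplasmic reticulum (−1.31, adjusted p = 0.0170), a call that ended without M10 (0.0811), without M12 (0.0827) and without both M5 and M10 (0.0942). Of 18 tested thioredoxin and peroxiredoxin genes, 1 fell (median −0.03), the mitochondrial methionine sulfoxide reductase Msrb2 (−1.61, adjusted p = 0.0287). That call ended in 6 alternative fits (without M1, M2, M5, M10 or M12, and without both M5 and M10; adjusted p up to 0.217). In LbNOX livers Msrb2 had 309 ± 106 after water and 73.9 ± 40.8 after ethanol (−2.10, SE 0.43), which did not pass (adjusted p = 0.0825), and the difference of its ethanol effects was −0.50 (95% interval −1.78 to 0.79). In that list Txnrd3, a thioredoxin reductase best known from testis, had 131 ± 17.0 in luciferase ethanol and 65.9 ± 13.8 in LbNOX ethanol livers and was lower in the latter (−0.99, adjusted p = 0.0253), a call that ended in 6 alternative fits (among them without M10, M12, M13 or M15; up to 0.115). Of 14 genes that remove superoxide and peroxide, 0 were called in any comparison by limma. In luciferase livers after ethanol 3 of the 14 had an unadjusted p under 0.05, where 21.1% of all genes tested did. There edgeR and DESeq2 each called 1 of the 14, and 1049 and 1621 genes over the whole table. Of 17 haem and iron genes, 1 fell in luciferase livers after ethanol: Tfrc, the transferrin receptor, went from 1462 ± 317 to 487 ± 180 (−1.63, SE 0.30, adjusted p = 0.00423). Tfrc was higher in LbNOX than in luciferase livers after ethanol (1.37, adjusted p = 0.0296), a call that ended in 6 alternative fits (among them without M10, M11, M13 or M14; up to 0.139). Of 20 genes that supply NADPH, 2 rose in luciferase livers (Me1 and Pgd; median 0.17). After water, and in LbNOX livers after ethanol, 0 genes of any of these lists were called by limma or edgeR. DESeq2 called 1 of the regulators and partners and 2 of the thioredoxin genes in LbNOX livers after ethanol, where 1 and 3 had an unadjusted p under 0.05. Over all genes tested DESeq2 called 282 there, and 11.6% had an unadjusted p under 0.05 by limma.

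Coordinates are those of GENCODE vM21 on GRCm38. Gclc lies on chromosome 9 from 77754535 to 77794485 (+ strand), Hmox1 on chromosome 8 from 75093621 to 75100589 (+) and Osgin1 on chromosome 8 from 119434124 to 119446256 (+). Nqo1 (107388225 to 107403206, −) and Gsr (33652523 to 33698163, +) are also on chromosome 8, and Keap1 (21229730 to 21239361, −) on chromosome 9. Nfe2l2 (75675513 to 75704641, −) and Srxn1 (152105516 to 152111376, +) are on chromosome 2, Gclm (122245557 to 122270732, +) on chromosome 3 and Txnrd1 (82833951 to 82897712, +) on chromosome 10. No other annotated gene overlaps Gclc, Hmox1, Osgin1, Nqo1 or Srxn1, and Nfe2l2 and Gsr each overlap a small RNA gene. Keap1 overlaps an antisense gene, Gm16754, Gclm overlaps Gm17494 on the opposite strand and the pseudogene Gm6061, and Txnrd1 overlaps Eid3 and 2 genes of the opposite strand. These overlaps are of whole gene spans, introns included, and shared exon bases were not examined. Whether strand was used in counting is not given in the sources used here. Whether values of Keap1, Gclm and Txnrd1 include reads of such partners was not tested.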

How the data were processed

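Liver RNA was sequenced in 15 libraries, made with a KAPA mRNA kit as stated in the labels' protocols. Among the tools in the submitters' processing notes are Salmon 1.5.1 and DESeq2 1.30.1, and the build is mm10; roles are not stated. The values deposited by the authors are a signal, namely normalized counts by gene, each library having been divided by 1 factor. All 244950 values (100%) lay within 0.001 of whole multiples of the library's smallest value, which gave reads for edgeR 4.0.16 and DESeq2 1.42.0, run as alternatives. Groups came from the table's header, which carries no replicate numbers.

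Log2 of the normalized count plus 1 was tested with limma 3.58.1 under R 4.3.3 (trended prior, robust), in 1 fit of the 4 groups, for genes reaching 10 in at least 3 libraries. An adjusted p (Benjamini-Hochberg, all genes tested) below 0.05 was a call. Further alternatives changed pseudocount, filter, normalization, trend and libraries. The fit was tried on simulated data. Members and lists were chosen with earlier results of these data known. Named are the members, up to 4 called genes per list and 3 genes most like each called member. Date-like names replaced 23 symbols, which are not reported. Construct transcripts were not analysed here.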

Additional observations from a re-analysis of the deposited data

Results flagged for a closer look

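Single libraries stood apart in 3 of 46 groups of 4 or 5 libraries examined, by Dixon's criterion; chance alone marks about 1 in 20 such groups. Keap1 was 268 in M5, below the other luciferase water libraries. Nqo1 was 491 in the same library, also below its group. Ugt2b35 was 9533 in M8, above the other LbNOX water libraries.

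The ethanol effect differed between the constructs, by limma's test of the difference, for 3 of the genes named beside the members. It was lower in LbNOX livers by −2.38 on the log2 scale for Maff (adjusted p = 0.00847), by −2.09 for Trib3 (adjusted p = 0.00810) and by −1.31 for Txnrd3 (adjusted p = 0.0476). The Txnrd3 call ended in 17 alternative fits, with an adjusted p up to 0.132. Genes beside the members were named for being called in a comparison, this one included, so calls among them follow from that choice. Over all genes tested 0.427% were called on the higher and 1.25% on the lower side.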

How the results depend on the processing

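No paired analysis was possible because the columns of the table carry no replicate numbers. The direction of the members held throughout in luciferase livers (10 of 10 below 0 after ethanol in every fit) and, after ethanol, for LbNOX minus luciferase (10 above 0, or 9 without M13). In luciferase livers after ethanol 1 member was called, against 0 with only the groups compared or without M5 and M10, 3 with DESeq2, and 0 to 3 when 1 library was left out. In LbNOX livers 0 were called, against 1 without M3 and M8. For LbNOX against luciferase after ethanol 1 was called, against 0 without the trend or without M5 and M10, 3 without M3 and M8, 2 with DESeq2, and 0 to 2 when 1 library was left out. For the difference of effects 0 were called, against 1 without M3 and M8 and 0 to 2 when 1 library was left out. Where a single library leaves an arm with 2, the pooled spread carries the test.

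Signs turned for values near 0, none of them called. With 1 library left out, the ethanol effect in LbNOX livers ran from −0.011 to 0.50 for Keap1, −0.28 to 0.022 for Nqo1, −0.028 to 0.39 for Srxn1, −0.18 to 0.0041 for Txnrd1, −0.0074 to 0.21 for Gsr and −0.092 to 0.27 for Osgin1. Txnrd1 was also at 0.0041 without M3 and M8. LbNOX minus luciferase after water ran from −0.24 to 0.022 for Nfe2l2, −0.16 to 0.11 for Nqo1, −0.27 to 0.089 for Gclc, −0.53 to 0.0072 for Srxn1, −0.15 to 0.058 for Txnrd1 and −0.49 to 0.081 for Hmox1. Nqo1 there was at −0.16 without M5 and M10, −0.0066 with edgeR and −0.0034 with DESeq2. For Gclm, LbNOX minus luciferase after ethanol ran from −0.082 to 0.15, and the difference of effects from −0.021 to 0.21.

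Counts over all genes moved as well. In luciferase livers after ethanol 1052 genes were called, against 1621 with DESeq2, 614 with only the groups compared, 434 without M5 and M10 and 446 to 1217 with 1 library left out. For LbNOX against luciferase after ethanol the 822 calls became 1349 with DESeq2, 256 without M5 and M10 and 299 to 944 with 1 library left out. For the difference, 227 became 633 with DESeq2, 151 without the trend, 395 without M3 and M8, 58 without M5 and M10 and 64 to 403 with 1 library left out. In LbNOX livers 1 became 282 with DESeq2, 3 with only the groups compared, 142 without M3 and M8, and 0 to 28 with 1 library left out. After water 0 became 18 with DESeq2, 2 without M3 and M8 and 1 without M5 and M10. The causes were not tested. The lowest normalized count of any member was 213 (Keap1 in M12), far above the filter on low values.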
